A study of Mus musculus with 2 samples.

Results

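The vascular gene set comprised 39 genes of endothelial cells and of vessel growth, listed by symbol, and each was found on the arrays. They were chosen by gene identity: a probe set counted when the platform annotation gave it exactly 1 gene and that gene was on the list, which yielded 70 probe sets, and for each gene the probe set brightest on average across the arrays gave its value. The 39 genes were among 18193 named genes on the platform and among the 11621 that counted as measured, meaning that the brighter array read above a floor of 78.1, the median of all non-control intensities. The interdigital tissue ID2 and ID3 of hind limbs was compared at E13.5 between homozygous Hammer toe embryos, a mouse mutant with webbed digits, and wild-type B6 embryos. There was 1 array per genotype, so no value has an error between samples and no test was possible. The design text mentions 3 sets of 5 littermates, 15 embryos per genotype, without saying how they relate to the arrays. The labels name the B6 strain for wild type alone; strain and the Hammer toe allele therefore cannot be told apart. Values are MAS5 intensities in arbitrary units, and every ratio is the log2 of Hammer toe over wild type with intensities under the floor raised to it.

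Blood vessels of the limb are lined by endothelial cells, which are held together by junction proteins such as VE-cadherin and read growth cues through receptor tyrosine kinases. VEGF ligands from the surrounding mesenchyme act on VEGF receptors, angiopoietins act on Tie2, and Notch signalling from Dll4 restrains the number of sprouting tip cells. The undifferentiated limb mesenchyme between the digits is rich in vessels, whereas the cartilage condensations lose theirs, and webbed digits arise when the interdigital tissue persists. The arrays ask whether vascular transcripts in this tissue differed between the genotypes.

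As a set, the vascular transcripts were centred near parity, with single genes on both sides. The median log2 ratio of the 39 genes was 0.01, as it was over all measured genes, with 21 genes higher in Hammer toe and 18 lower. No gene reached 2-fold, and 1 of the 39, Dll4, reached 1.5-fold. That is 2.56% of the set, against 3.56% of all measured genes at 1.5-fold or more in either direction. Of all measured genes, 2.17% passed 1.5-fold with the higher reading in Hammer toe and 1.39% with the lower one, and 0.37% reached 2-fold. A log2 ratio under 0.32 in size was found for 31 of the 39, or 79.5%, against 85.2% of all measured genes. The median size of the log2 ratio, regardless of sign, was 0.23 for the 39 and 0.12 for all measured genes. The 39 brightest-probe-set intensities summed to 21640 on the Hammer toe array and 21560 on the wild-type array. In whole tissue, fewer cells of a type and less RNA per cell cannot be told apart.

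**Figure D1:**
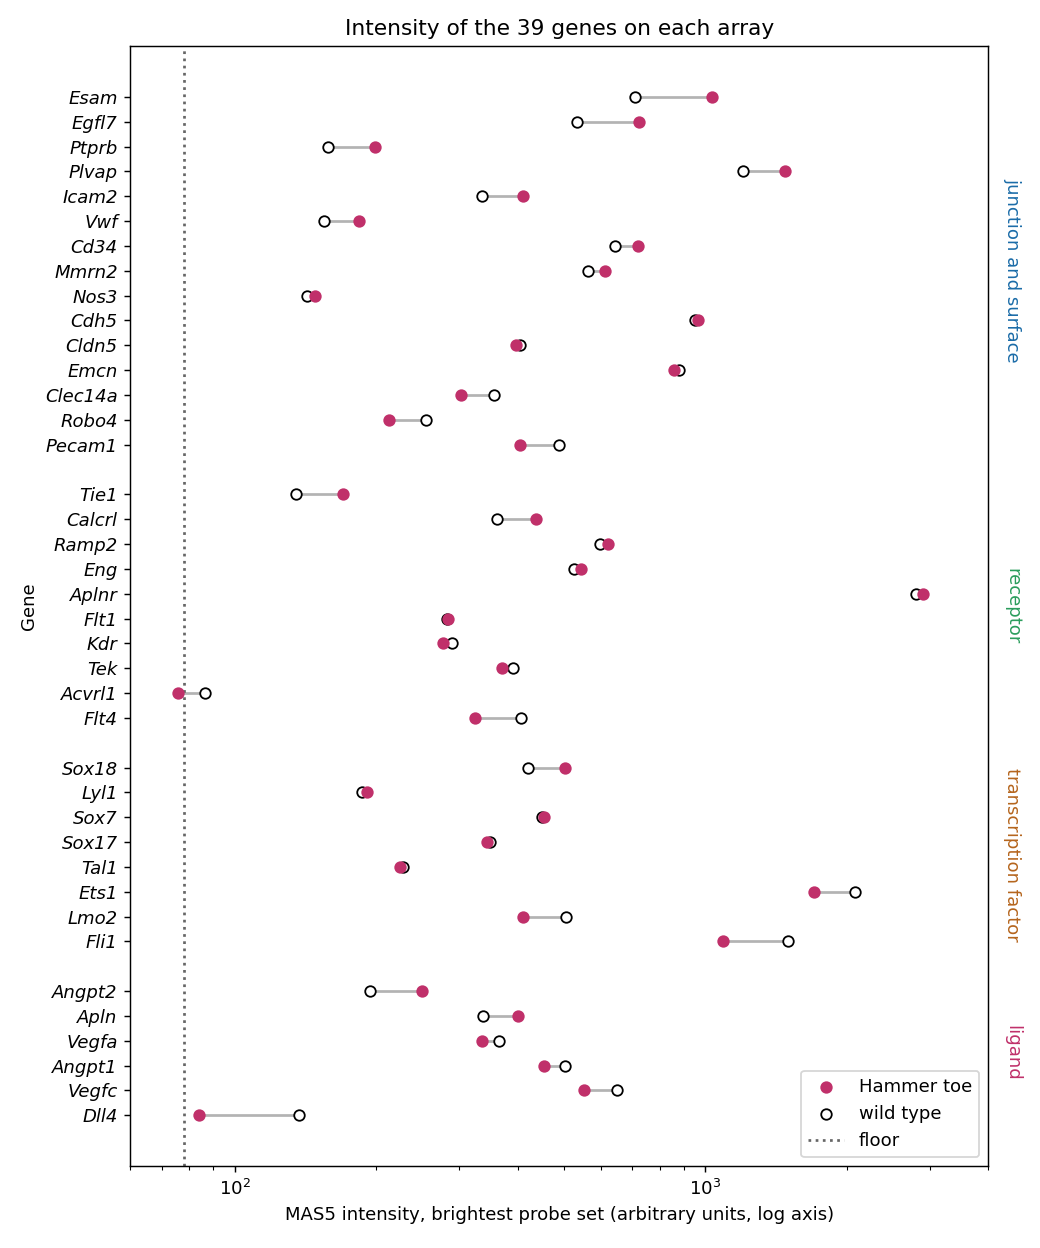
MAS5 intensity (log axis) of the brightest probe set of each of the 39 genes, grouped by role, with Hammer toe as filled and wild type as open circles and the floor as a dotted line. Many pairs of circles touch or nearly touch; the widest gaps are those of Dll4, Esam and Fli1, and Acvrl1 alone crosses the floor.

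The spread expected between 2 arrays depends on brightness, so each gene was also set against measured genes of like intensity. For genes with a brighter reading of at most 200, a 1.60-fold range held 95% of them; from 200 to 1000 the limit was 1.45-fold, and above 1000 it was 1.24-fold. By this measure 3 of the 39 lay outside, namely Esam, Fli1 and Dll4, which is 7.69% of the set against 5.01% of all measured genes, a share that the definition of the range fixes. Among the 27 genes between 200 and 1000, the median size of the log2 ratio was 0.15, against 0.14 for all genes of that brightness. Among the 5 genes above 1000 it was 0.29, against 0.08. Those 5 were Esam, Plvap, Aplnr, Ets1 and Fli1, and all but Aplnr had a ratio of at least 0.29 in size.

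**Figure D2:**
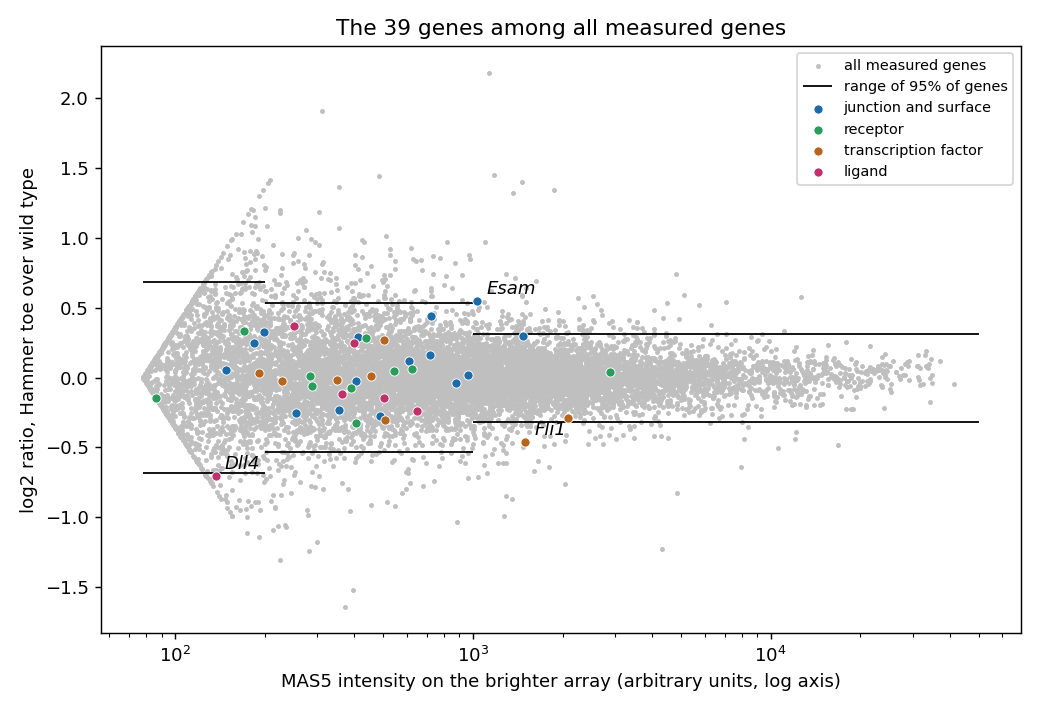
Log2 ratio against the intensity of the brighter array (log axis) for all 11621 measured genes (grey) and the 39 vascular genes (coloured by role), with black lines at the range that holds 95% of genes in each of 3 brightness classes. Esam lies above the range, and Fli1 and Dll4 below it.

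The genes that define endothelium were above the floor on both arrays. Cdh5 (VE-cadherin, the adhesion molecule of endothelial junctions) read 965 in Hammer toe and 950 in wild type, a log2 ratio of 0.02. Its second probe set, at 126 against 101, gave 0.32. Emcn (endomucin, a surface sialomucin of capillaries and veins) read 857 in Hammer toe and 880 in wild type. Cldn5, a tight junction protein, read 397 against 405, and Nos3, the endothelial nitric oxide synthase, 148 against 142. Cdh5, Emcn, Cldn5 and Nos3 differed by at most 1.04-fold on their brightest probe sets. Pecam1 (CD31, a junctional adhesion molecule also found on platelets and leukocytes) was lower, at 404 in Hammer toe and 489 in wild type, a log2 ratio of -0.28. Over the 5 defining genes Pecam1, Cdh5, Tie1, Kdr and Emcn, 2 were higher and 3 lower, from -0.28 for Pecam1 to 0.33 for Tie1, and their intensities summed to 2672 in Hammer toe and 2744 in wild type.

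Within the 15 junction and surface genes, 10 were higher in Hammer toe and 5 lower, with a median log2 ratio of 0.12. Esam, an endothelial adhesion molecule of tight junctions that platelets also carry, was the furthest above wild type, at 1034 in Hammer toe and 708 in wild type, 1.46-fold. It was read from a single probe set, and its log2 ratio of 0.55 also exceeded the limit of 0.53 for the brightness class just below its own. Egfl7, a protein that endothelial cells secrete into their matrix, read 724 against 534, 1.36-fold higher. All 4 Egfl7 probe sets read higher, with log2 ratios of 0.18 to 0.44, so the gene had the same direction whichever probe set was read. All 4 were of the _x_at or _a_at types, which can bind related or several transcripts. Plvap, which forms the diaphragms of fenestrated capillaries, read 1478 in Hammer toe and 1205 in wild type, and Icam2, an adhesion molecule for leukocytes, 410 against 335. Both ratios were 0.29 on the log2 scale and lay inside the range of genes of like intensity. Vwf, the clotting factor of endothelial storage granules, read 183 against 155, and Cd34, a sialomucin shared with haematopoietic progenitors, 719 against 642.

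Of the 5 lower genes, Emcn and Cldn5 were near parity, and Pecam1, Robo4 and Clec14a lay further below. Robo4, an endothelial receptor of the Robo family that stabilises vessels, read 213 in Hammer toe and 254 in wild type, a log2 ratio of -0.26. Clec14a, a lectin-like protein of sprouting endothelium, read 303 against 356 on its brighter probe set, a ratio of -0.23. Its second probe set read 134 against 232, a ratio of -0.80, so that both were lower but by different amounts. Mmrn2, a matrix protein that binds Clec14a, read 611 in Hammer toe and 563 in wild type, and its 4 probe sets ranged from -0.45 to 0.21. Ptprb (VE-PTP, the phosphatase that acts on Tie2 and VE-cadherin) gave 0.33 on 1 probe set and -0.24 on the other. The direction of Mmrn2 and Ptprb thus depends on the probe set.

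Of the 10 receptors 6 were higher and 4 lower, with a median log2 ratio of 0.03 and a median size of 0.069, the smallest of the 4 groups. Kdr (VEGFR2, the main signalling receptor for VEGF-A) read 277 in Hammer toe and 289 in wild type, a ratio of -0.06. Flt1 (VEGFR1, which binds VEGF-A, VEGF-B and placental growth factor and acts partly as a decoy) read 284 against 282 on its brightest probe set. Its 4 probe sets ranged from -0.54 to 0.12. Flt4 (VEGFR3, the receptor of VEGF-C and VEGF-D) read 324 in Hammer toe and 406 in wild type, a ratio of -0.32, the lowest of the receptors. The other Flt4 probe set stayed below the floor in both genotypes. Tek (Tie2, the angiopoietin receptor) read 370 against 390, while Tie1, the related orphan receptor, read 170 against 135, a ratio of 0.33. The 2 Tie receptors thus had opposite signs, each within the range of genes of like intensity.

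Aplnr, the apelin receptor of venous and sprouting endothelium, was the brightest reading among the receptors, at 2897 in Hammer toe and 2813 in wild type, a ratio of 0.04. Its dimmer probe set, at 400 against 313, gave 0.35. Calcrl and Ramp2, which together form the adrenomedullin receptor, read 438 against 360 and 622 against 597, ratios of 0.28 and 0.06. Probe sets that name Ramp2 together with Vps25 stayed outside the gene values and had ratios of -0.11 and 0.11. Eng (endoglin) and Acvrl1 (ALK1), which pair as receptors for circulating BMP ligands, had ratios of 0.05 and -0.14. The second probe set of Eng read 292 in Hammer toe and 216 in wild type, a ratio of 0.44. Acvrl1 read 75.6 in Hammer toe, under the floor, and 86.3 in wild type, so it was at least 1.11-fold lower.

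**Figure D3:**
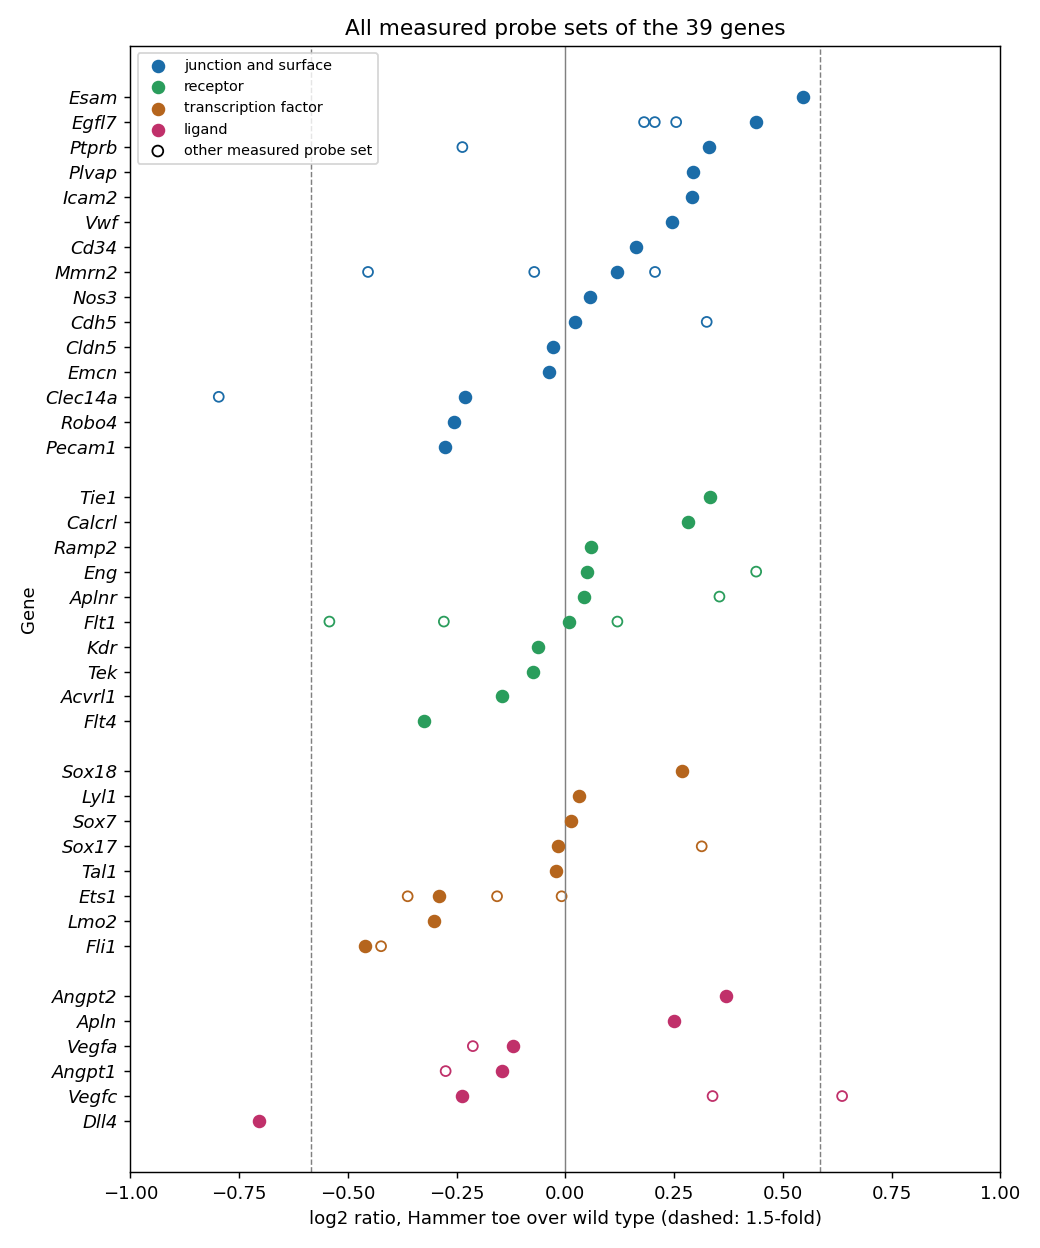
Log2 ratio of every measured probe set of the 39 genes, with the brightest probe set of a gene filled, the others open, and dashed lines at 1.5-fold. Fli1 and Ets1 have all their probe sets below 0 and Egfl7 all above it, while Vegfc, Mmrn2, Ptprb, Flt1 and Sox17 have probe sets on both sides.

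Among the 8 transcription factors, 3 were higher in Hammer toe and 5 lower, and Fli1 had the lowest ratio. Fli1, an ETS factor of endothelium, megakaryocytes and other cells, read 1089 in Hammer toe and 1498 in wild type, 1.38-fold lower. Its second probe set read 531 against 712, and the ratios were -0.46 and -0.42. Ets1, an ETS factor of endothelium, lymphocytes and mesenchyme, read 1701 in Hammer toe and 2080 in wild type on its brightest probe set. All 4 of its probe sets were at or below parity, from -0.36 to -0.01. Erg, another ETS factor of endothelium that cartilage and joint cells of the limb also express, is outside the 39; its probe sets had ratios of -0.21 and -0.18. Each of the 8 probe sets of these 3 factors thus read lower in Hammer toe, although Fli1 alone lay outside the range of genes of like intensity. Erg was set beside the others after its values were seen.

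The factors that endothelium shares with blood progenitors were uneven. Lmo2, a bridging cofactor of the Tal1 complex, read 411 in Hammer toe and 506 in wild type, a log2 ratio of -0.30. Tal1 read 225 against 228 and its relative Lyl1 191 against 187, ratios of -0.02 and 0.03. The SoxF factors Sox7, Sox17 and Sox18, which act in arterial and lymphatic specification, had ratios of 0.01, -0.02 and 0.27. Sox18 was the highest, at 505 in Hammer toe and 419 in wild type, and the second probe set of Sox17 gave 0.31.

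Fli1, Ets1 and Lmo2 read lower in Hammer toe, as did most measured platelet and erythroid genes but not macrophage genes. Of 7 measured genes of megakaryocytes and platelets out of 11 listed, 6 were lower in Hammer toe, with a median log2 ratio of -0.60 and summed intensities of 1764 in Hammer toe and 2505 in wild type. Pf4 (platelet factor 4) read 865 against 1047, Ppbp (another platelet chemokine) 327 against 580, and Tubb1 (the platelet tubulin) 86.8 against 191. Of 11 measured erythroid genes out of 15 listed, 8 were lower, with a median of -0.32 and sums of 52284 in Hammer toe and 60263 in wild type. The globin genes were uneven. Hba-x read 12054 in Hammer toe and 16837 in wild type, and Hbb-bh1 2737 against 4846, while Hbb-y had a ratio of -0.04. The 3 higher erythroid genes were Hba-a2, Hbb-b2 and Tfrc, with ratios of 0.39, 0.28 and 0.16. Over all measured genes, 5616 of 11621 were lower. Macrophage genes went the other way, with 13 of 14 higher and a median of 0.40, and Tal1 and Lyl1 were near parity. The part of blood cells in the Fli1, Ets1 and Lmo2 values was not tested. Of the surface and granule genes that platelets also carry, Pecam1 was lower in Hammer toe and Esam, Vwf and Icam2 were higher. A set of 10 members that blood cells are also known to express was chosen after these values were seen. Without them, the median ratio of the remaining endothelial genes was 0.02, as with them. A median over many genes cannot show the part of blood cells in single genes such as Fli1, Ets1 and Lmo2.

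ETS factors bind a GGAA core, and many endothelial promoters are known to carry it, so the letters upstream of the members' start sites were read. RefSeq promoters (GRCm38.p6) were matched for 19 of the 39 genes, in 23 windows, and the 250 bases before each start were searched on both strands for AGGAAG or CGGAAG, which share the core and cannot cover the same site. Of the 23 windows, 11 held a match, or 47.8%, against 39.2% of all 32851 windows in the table. The promoters of Tie1 and Egfl7 are shown as examples with matches. These 2 had the highest log2 ratios, 0.33 and 0.44, of the 10 genes with a match. Of those 10, 8 were higher in Hammer toe, and Robo4 and Emcn were lower, at -0.26 and -0.04. The promoter of Dll4 is shown because it was the only gene at 1.5-fold and held neither AGGAAG nor CGGAAG. The examples therefore do not stand for the genes with and without a match. Sequences run 5′ to 3′ on the gene's strand, ending just before the start, with matches in capitals; for Egfl7 the first of its 3 windows is given.
Dll4, chr2:119325534-119325783 (+ strand): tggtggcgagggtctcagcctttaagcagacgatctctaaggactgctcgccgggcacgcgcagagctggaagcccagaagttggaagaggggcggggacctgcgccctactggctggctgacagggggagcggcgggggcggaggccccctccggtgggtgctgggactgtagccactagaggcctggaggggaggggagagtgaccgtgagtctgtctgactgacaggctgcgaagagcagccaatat
Tie1, chr4:118489850-118490099 (- strand): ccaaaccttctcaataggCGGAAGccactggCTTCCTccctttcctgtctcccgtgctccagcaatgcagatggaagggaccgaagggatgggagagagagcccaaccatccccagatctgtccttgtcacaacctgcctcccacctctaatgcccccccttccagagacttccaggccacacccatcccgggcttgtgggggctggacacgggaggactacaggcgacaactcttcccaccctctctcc
Egfl7, chr2:26580833-26581082 (+ strand): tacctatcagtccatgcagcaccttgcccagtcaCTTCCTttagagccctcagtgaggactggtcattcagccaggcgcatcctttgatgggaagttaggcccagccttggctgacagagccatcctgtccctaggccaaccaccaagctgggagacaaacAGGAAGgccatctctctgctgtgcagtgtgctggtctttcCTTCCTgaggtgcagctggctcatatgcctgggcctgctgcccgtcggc
The Tie1 window holds 2 matches and the Egfl7 window 3. A match describes the letters and is no evidence of binding, and its absence says only that these letters are not in the window. The GGAA core can still be present without a match: the Dll4 window holds it within TGGAAG, which was not searched for.

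The 6 angiogenic ligands were mixed. On their brightest probe sets 2 were higher in Hammer toe and 4 lower, with a median log2 ratio of -0.13, against 0.02 for the 33 endothelial genes, of which 19 were higher and 14 lower. The difference of the medians was 0.15, endothelial genes minus ligands. It rested on the choice of probe set: with the mean over all measured probe sets of each gene it was -0.0082, and without probe sets of the _x_at, _s_at and _a_at types, which can bind related or several transcripts, it was -0.043. The sign of the difference thus changed with the probe set rule.

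Dll4, the Notch ligand of arteries and tip cells, had the lowest ratio of the 39. It read 84.0 in Hammer toe, just above the floor, and 137 in wild type, 1.63-fold lower. Since 95% of genes of that brightness lay within 1.60-fold, Dll4 stood at the edge of their range. With a pseudocount in place of the floor its log2 ratio was -0.41, under 1.5-fold, and under a 75th-percentile floor it was not measured. Its second probe set read 51.5 in Hammer toe and 70.6 in wild type, under the floor on both arrays. Vegfa, the main VEGF ligand, read 335 in Hammer toe and 364 in wild type, a log2 ratio of -0.12, and its second probe set gave -0.21.

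Vegfc, the ligand of VEGFR3 that drives lymphatic growth, showed the widest disagreement. Its brightest probe set, of the _x_at type, read 551 in Hammer toe and 650 in wild type, a log2 ratio of -0.24. The others read 363 against 287 and 280 against 180, ratios of 0.34 and 0.64, so no direction can be given for Vegfc. Angpt1, the Tie2 agonist made by mesenchymal and mural cells, read 455 in Hammer toe and 503 in wild type, with ratios of -0.15 and -0.28 on its 2 probe sets. Angpt2, the context-dependent Tie2 ligand that sprouting endothelium releases, read 250 against 194, 1.29-fold higher. Apln (apelin, a tip cell peptide) was 1.19-fold higher, at 400 against 336. The angiopoietins thus read in opposite directions, each within the range of genes of like intensity.

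Of 40 other genes of vessel growth, 35 were measured, 20 higher in Hammer toe and 15 lower, with a median log2 ratio of 0.03. At 1.5-fold or more, 2 were higher and 2 lower, or 11.4% of the 35, against 3.56% of all measured genes. The list was written with earlier results of these data known, so this share cannot be read as an excess. Pgf (placental growth factor, a Flt1 ligand) read 99.6 in Hammer toe and 192 in wild type, 1.93-fold lower on a single probe set. Vegfb (also a Flt1 ligand) read 693 against 1115, 1.61-fold lower on a single probe set of the _a_at type. Higher in Hammer toe were 2 guidance cues. Cxcl12, the chemokine ligand of Cxcr4, read 1386 against 845, 1.64-fold, with ratios of 0.71 and 0.72 on its measured probe sets. Sema3e, the semaphorin that repels endothelium through Plxnd1, read 331 against 203, 1.62-fold, with 0.70 and 0.71. All 4 genes lay outside the range of genes of like intensity. The receptors named here, Cxcr4 and Plxnd1, were near parity, at -0.01 and -0.09. The chemokine receptor gene Ackr3, also listed, read 4765 in Hammer toe and 3972 in wild type. Its ratio of 0.26 lay inside the range of genes of like intensity.

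Notch4, a Notch receptor of endothelium, read 351 in Hammer toe and 503 in wild type, a log2 ratio of -0.52. Notch1 and the Notch targets Hey1 and Hey2 had ratios of 0.23, -0.26 and 0.30, so the genes of this pathway did not share a direction. The hypoxia-response factors Hif1a and Epas1, which act upstream of Vegfa, were at 0.09 and 0.05 on their brightest probe sets. Their other measured probe sets gave -0.05 and -0.16 for Hif1a and -0.02 for Epas1, the last under the floor in Hammer toe. Neither gene thus had the same sign on all its probe sets. Nrp1 and Nrp2, the VEGF and semaphorin co-receptors, were at 0.18 and -0.12, and the tip cell gene Esm1 was at -0.03.

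Set beside each other after their values were seen, the VEGF ligand genes Vegfa, Vegfb, Vegfc, Vegfd and Pgf were all lower in Hammer toe on their brightest probe sets, with a median log2 ratio of -0.41. Vegfc enters this count only by its brightest probe set; without it, 4 of 4 genes and all 7 of their measured probe sets were lower, with a median of -0.55. Of all 10 measured probe sets 8 were lower and 2, both of Vegfc, were higher. As the genes were put together with their values known, these counts are no test of a shared direction. On their brightest probe sets Vegfa, Vegfc and Vegfd lay inside the range of genes of like intensity, and Vegfb and Pgf outside it. Vegfd, a ligand of VEGFR3, read 117 in Hammer toe and 156 in wild type, and its 3 probe sets had ratios of -0.41 to -0.66, at low intensity. On the brightest probe sets of their receptors, Kdr and Flt1 had ratios of -0.06 and 0.01, and Flt4 of -0.32.

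**Figure D4:**
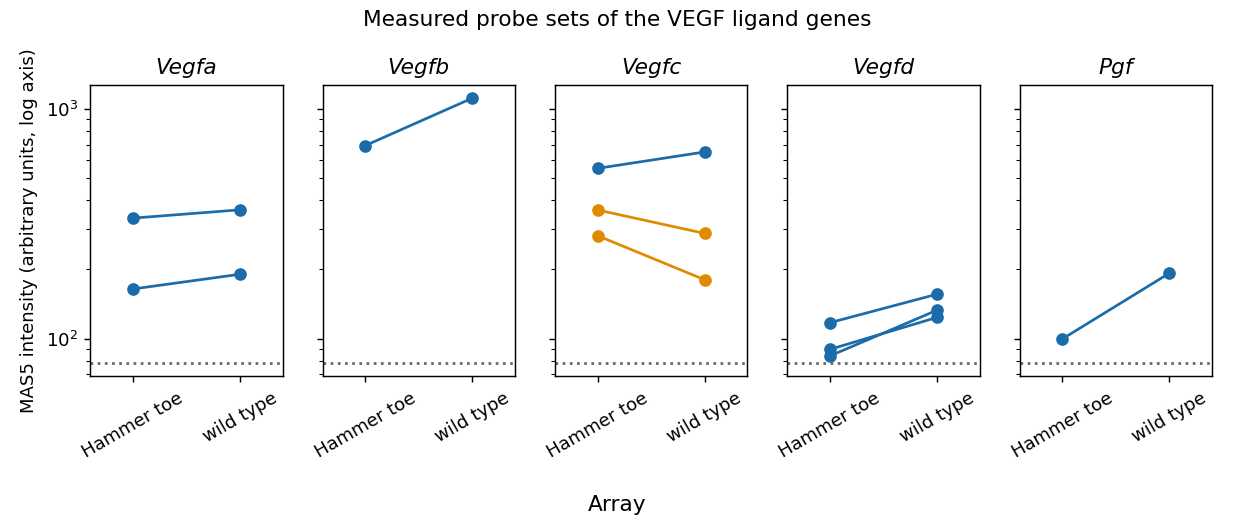
MAS5 intensity (log axis) of each measured probe set of 5 VEGF ligand genes on the Hammer toe and wild-type arrays, joined by a line, blue where Hammer toe is lower and orange where it is higher, with the floor dotted. The lines slope up toward wild type in Vegfa, Vegfb, Vegfd and Pgf, and Vegfc has lines of both slopes.

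Markers of cells that surround or lie near vessels were uneven. Of 11 measured mural cell genes, 5 were higher in Hammer toe and 6 lower, with a median of -0.04; Pdgfrb, the pericyte receptor that mesenchyme also expresses, read 3286 in Hammer toe and 3145 in wild type. Tagln, a smooth muscle actin-binding protein, was 1.93-fold higher, at 213 against 110, and Kcnj8, a channel subunit of pericytes, 1.60-fold higher. These were the only 2 mural genes at 1.5-fold or more. The 6 lower ones were Rgs5 at -0.26, Abcc9 at -0.25, Anpep at -0.14, Cspg4 at -0.11, Notch3 at -0.04 and Des. Des was at least 1.23-fold lower, with its Hammer toe reading under the floor. Of 6 lymphatic genes listed, 3 were measured: Pdpn, which ectoderm and other cells also express, at 1554 in Hammer toe and 1329 in wild type, Flt4 as above, and Reln at 85.7 in Hammer toe and, under the floor, 54.9 in wild type. Prox1 and Lyve1, which define lymphatic endothelium, were under the floor on both arrays. Macrophage genes were higher in 13 of 14, with sums of 4977 in Hammer toe and 3861 in wild type. Of 12 surface ectoderm genes 10 were higher, and their sums were 17467 in Hammer toe and 13705 in wild type. Muscle genes were higher in 6 of 8. All 9 interdigital mesenchyme markers were above the floor on both arrays, 3 higher in Hammer toe and 6 lower. The brightest was Hoxd13, at 15779 in Hammer toe and 17291 in wild type. The dimmest was Tbx3, at 455 in Hammer toe and 262 in wild type. Tbx2 and Tbx3 were 1.63-fold and 1.74-fold higher. Hoxa13 was 1.33-fold lower, at 761 in Hammer toe and 1009 in wild type. Tbx2, Tbx3 and Hoxa13 lay outside the range of genes of like intensity. The part of these other cells in the vascular values was not tested.

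**Figure D5:**
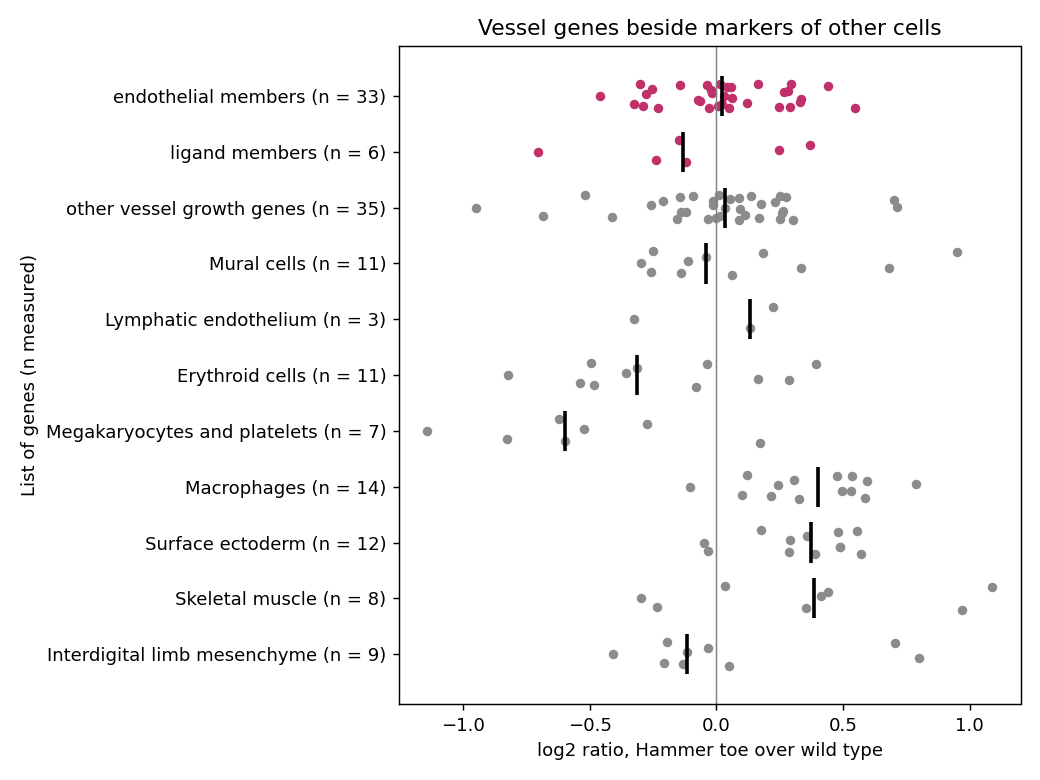
Log2 ratio, Hammer toe over wild type, of each measured gene (points) in the vascular set (coloured) and in lists of other cells (grey), with the median of each list as a black bar. The 33 endothelial genes centre on 0.02 between -0.46 and 0.55, while the platelet median lies at -0.60 and the macrophage median at 0.40.

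Probe sets of the same gene bear on how far these ratios can be read. Of the 39 genes, 14 had more than 1 measured probe set, and for 9 of these all lay on the same side of parity. Opposed signs were seen for Mmrn2, Ptprb, Flt1, Sox17 and Vegfc. The SD of the log2 ratio between probe sets of 1 gene was 0.26 for these 14 genes and 0.21 for 5134 genes of the whole array, while 18 hybridisation control probe sets differed with an SD of 0.06. Of the other 25 genes, including Esam, Dll4 and Lmo2, each rested on 1 measured probe set.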

How the data were processed

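Each array measured interdigital RNA of 1 genotype with short oligonucleotide probe sets. Per the labels' protocols, biotinylated cRNA was prepared from 250 ng of total RNA. The deposited intensity values are linear, 1 per probe set and array, and come from the MAS5 method, run by the authors in Affymetrix Expression Console; the submitters' processing notes name both without a version. Both arrays had the same mean of 500.003 after trimming 2% at each end, so a shift of most transcripts in 1 direction would be hidden. Detection calls were not used here.

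Of 45101 probe sets, 64 controls were left out; 34945 named 1 gene, 932 several and 9160 none. Symbols were updated by gene ID to the RefSeq table of GRCm38.p6, and 204 probe sets kept the older symbol. The main setting raised intensities to a floor of 78.1 before taking log2 ratios; a ratio with 1 array under the floor is written "at least". Genes were called by size, at 1.5-fold, with no test. All 39 genes are named; of the other vessel growth genes, the 5 with the largest ratios were named by rule and the rest after their values were seen. The members, lists and sizes were chosen with earlier results of these data known. Alternatives changed the scaling, the floor, the probe set rule and the size of change. The calling step was tested on simulated data. Python 3.11.15, numpy 2.4.6, pandas 2.3.3 and statsmodels 0.14.6 were used. With 1 array per genotype, the number of arrays limits the precision.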

Additional observations from a re-analysis of the deposited data

How the results depend on the processing

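The medians of the 39 genes and of the 33 endothelial genes moved by at most 0.1 on the log2 scale under median centring, quantile normalization, lowess correction (span 0.3), every floor, the pseudocount and both probe set rules. The ligand median did not: it was 0.040 with the mean over probe sets and 0.064 without _x_at, _s_at and _a_at probe sets, and the difference, endothelial genes minus ligands, became -0.0082 and -0.043. Under both, Vegfc was no longer read from its _x_at probe set alone. With only Vegfa, Vegfc and Angpt1 as ligands, the difference was 0.17. The count at 1.5-fold was 0 under a 75th-percentile floor, where 16 of the 39 genes stayed measured and Dll4 did not, and 0 with a pseudocount in place of the floor. At a log2 ratio of 0.32 or more in size 8 genes passed, and at 2-fold 0. Without _x_at, _s_at and _a_at probe sets 31 genes remained. Among single genes, the sign changed for 4 with the mean over probe sets, for 2 without those probe set types and for 1 under quantile normalization, none of them at 1.5-fold. Dim genes such as Dll4 and Acvrl1, close to the floor, are the least certain. With 1 array per genotype, leaving out a replicate was not possible. The values without members that blood cells also express were added after seeing the data.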

Other observations

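The 19 genes with a matched promoter differed in direction by whether they held AGGAAG or CGGAAG, a pattern noticed after the values were seen. Of the 10 genes with AGGAAG or CGGAAG in the 250 bases before a start, 8 were higher in Hammer toe, with log2 ratios of -0.26 to 0.44. Of the 9 without, 0 were higher, with ratios of -0.70 to -0.02. These counts are of signs alone, and some ratios were close to parity. With the letters, Flt1 was at 0.008, Lyl1 at 0.03 and Eng at 0.05, and without them Tal1 was at -0.02. Such sizes are well under the SD of 0.21 between probe sets of 1 gene, and the sign of Flt1 changed under quantile normalization. Over all measured genes with a matched promoter, 51.7% were higher among 4775 with the letters and 51.5% among 4644 without. With AGGAAG alone, 7 of 9 genes with a match and 1 of 10 without were higher, and with CAGGAAG 4 of 6 with and 4 of 13 without. The other 20 genes, Fli1 and Esam among them, were not analysed here for promoter letters, and no test was made.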
